A study of Mus musculus with 14 samples.

Results

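The heat shock proteins and chaperones described here are Hspa1a, Hspa1b, Hspa8, Hspa5, Hsp90aa1, Hsp90ab1, Hsph1, Dnajb1, Hspb1 and Hmox1, followed through every probe set annotated to one of these 10 symbols. A probe set is the group of short oligonucleotides on the array that reports 1 transcript. For 9 of the 10 genes there was at least 1 such probe set, 10 in all, among the 8251 genes that had a probe set of their own. Hsp90ab1 had none in the annotation used. Hsp90aa1 had a pair, called here the main probe set and the second probe set. A low-value filter passed 9 of the 10 probe sets, which stand for 8 genes, and the probe set of Hspb1 stayed below it. Members were taken by symbol alone, from a list of names drawn up with earlier results of these data known.

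RNA from mouse lymph node was hybridised to 14 Affymetrix arrays. The groups were Atm-/- (KO) and Atm+/+ (WT), and each genotype gave 3 untreated arrays and, after ionizing radiation (IR), 2 arrays at each of 2 times, 30 min and 120 min. Atm encodes the kinase that double-strand breaks in DNA activate. The sources used here state no strain, age, dose or form of the Atm allele, nor whether replicates came from separate animals, so a p-value measures the spread between these arrays, which may be technical.

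Chaperones bind unfolded protein and help it to fold, and many of their genes are switched on by the transcription factor HSF1 when protein damage builds up. Hsp70 proteins (the Hspa genes) work with Hsp40 co-chaperones such as Dnajb1 and with exchange factors such as Hsph1, while Hsp90 finishes the folding of kinases and receptors. Hspa5 does the work of an Hsp70 inside the endoplasmic reticulum and is induced by the unfolded protein response. Hmox1 is not a chaperone. It degrades heme and is induced by oxidative stress through Nrf2.

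The promoter bases show what the members share and where they differ. RefSeq promoters (build GRCm38.p6, the 250 bases before each start) matched 6 of the 10 genes, with 8 start sites. Hspa1a and Hspa1b, the inducible cytosolic Hsp70 genes, are near-identical copies, and their upstream sequences are printed whole because the results turn on this pair. They come from chr17:34972157-34972406 for Hspa1a and chr17:34959239-34959488 for Hspa1b, both read on the minus strand. Capitals mark matches to GAANNTTC, an arrangement of the short unit that HSF1 binds.
Hspa1a: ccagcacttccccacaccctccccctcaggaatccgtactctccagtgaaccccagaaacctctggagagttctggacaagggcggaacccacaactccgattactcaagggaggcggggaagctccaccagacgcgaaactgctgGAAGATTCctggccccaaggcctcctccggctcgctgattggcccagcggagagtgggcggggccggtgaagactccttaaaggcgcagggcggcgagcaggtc
Hspa1b: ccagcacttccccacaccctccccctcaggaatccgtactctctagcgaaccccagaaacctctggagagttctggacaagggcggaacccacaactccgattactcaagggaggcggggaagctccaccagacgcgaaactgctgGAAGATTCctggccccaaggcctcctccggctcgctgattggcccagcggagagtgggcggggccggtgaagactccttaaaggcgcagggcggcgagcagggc
Only 3 of the 250 bases differ (98.8% identical), and the match starts at the same place in both, 104 bases before the start. Both strands were searched for GAANNTTC and for its other arrangement, TTCNNGAA. Among 32851 mouse promoters in the same table, 6.69% of the windows held GAANNTTC, 7.17% held TTCNNGAA, and 12.8% held either. A match is a description of the letters, not a site shown to be bound.

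Shorter stretches show the other matches, again in capitals. Hspb1, a small heat shock protein, had a pair of GAANNTTC matches at 117 and 97 bases before its start (chr5:135887787-135887844, plus strand). Hsph1 had 1 TTCNNGAA match (chr5:149636347-149636384, minus strand). In Hspa5 the match was to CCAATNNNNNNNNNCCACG, the endoplasmic reticulum stress element, 65 bases before the start (chr2:34772010-34772058, plus strand). That element stood in 0.113% of the windows.
Hspb1: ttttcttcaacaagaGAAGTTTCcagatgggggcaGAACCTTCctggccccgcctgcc
Hsph1: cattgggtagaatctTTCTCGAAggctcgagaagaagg
Hspa5: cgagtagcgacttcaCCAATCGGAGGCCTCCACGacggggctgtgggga
The windows of Dnajb1 held none of these letters.

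Values are the deposited intensities, a linear brightness per probe set and array, scaled before deposit. Probe sets differ in how brightly they report a transcript, so no level is set against that of another gene. Hspa5 lay between 1020.2 and 1803.0, at a median percentile of 97.7 of an array's values. Hspa8 lay between 586.8 and 1036.8 (median percentile 95.5). The main probe set of Hsp90aa1 lay between 357.3 and 739.8 (median percentile 91.3). Each of these 3 was at or above the 88th percentile on all 14 arrays. Hmox1 ran between 273.3 and 492.8 (median percentile 86.55). Hspa1b ran between 80.5 and 199.8 (median percentile 68.75). Hsph1 ran between 76.7 and 158.3 (median percentile 63.2). Dnajb1 (median percentile 49.6) and Hspa1a (median percentile 43.45) stood near the middle of an array. Hspb1, between 5.2 and 30.2, was above the 40th percentile on 0 arrays.

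**Figure D1:**
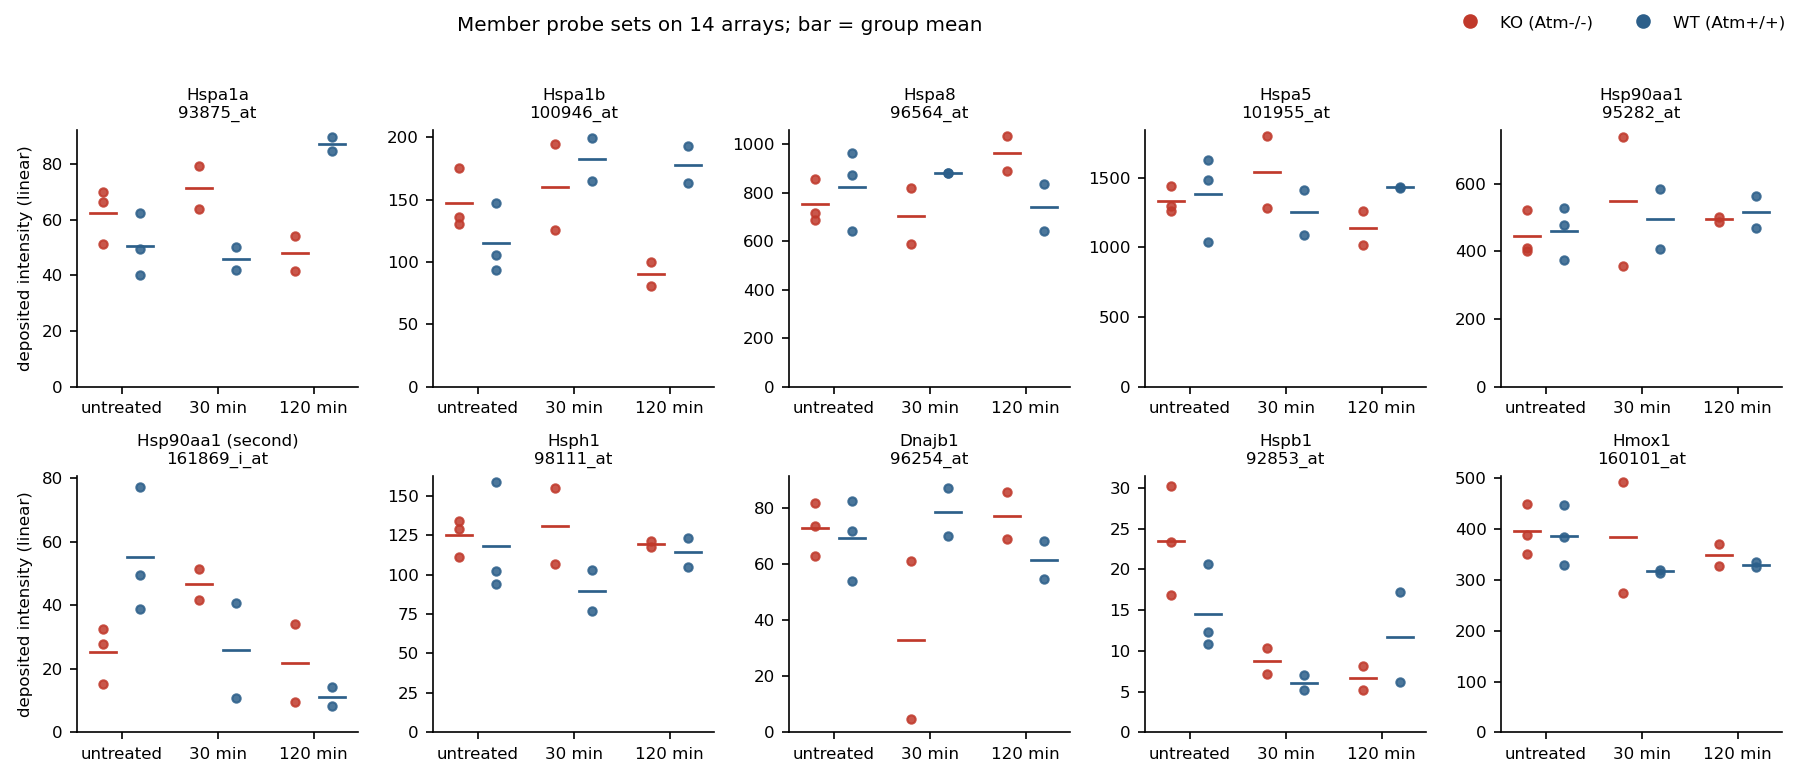
Deposited intensity (linear axis from 0, 1 panel per member probe set, each with its own scale) on every array, with time after irradiation on the horizontal axis and KO left of WT at each time; points are arrays and bars are group means. Hspa1b lay at 80.5 and 99.9 in KO and at 163.2 and 193.1 in WT at 120 min, and Dnajb1 lay at 4.9 on 1 KO array at 30 min.

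The RNA is that of whole tissue, where fewer cells of a type and less RNA per cell cannot be told apart. Markers of lymphocytes, the defining cells of a node, were present, with sums of 1724.0 to 3567.4 for B cells (13 of 14 genes with a probe set) and 671.2 to 1156.2 for T cells (14 of 17). Salivary gland markers (10 of 20) summed to between 60102.6 and 105376.4 on these arrays, which the tissue label does not name. No gene of these 3 lists was at 0 on every array. The mean of an array's values without its extremes was 150.1 on each array, and array medians ran from 61.0 to 80.4. One KO array at 30 min, replicate A, stood apart, with the lowest mean correlation with the others (0.908), and was the lowest array for 15.1% of tested probe sets. On it 43 probe sets lay below 0.25 of the next lowest array, against 0 to 6 on the other arrays. The single Atm probe set was dim in both genotypes, at 7.5 to 44.0 in KO and 5.5 to 55.9 in WT, with a log2 difference of -0.33 (adjusted p = 0.866). Where it lies relative to the deleted part of Atm is not given, so it does not check the labels.

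No member passed the test. Changes are log2 differences of (value + 32) after quantile normalization, a scale that understates changes of dim genes, each ± its standard error from limma, and a call needs a p under 0.05 after adjustment over 8938 probe sets. In KO, 0 of 9 members were called at 30 min and 0 at 120 min, where 0% of all tested probe sets were called at each time. In WT, 0 were called at 30 min, where 0.101% of all probe sets were, and 0 at 120 min, where 0.515% were. For KO against WT the count was 0 in untreated nodes (0% of all), 0 at 30 min (0.101%), 0 at 120 min (0.257%) and 0 averaged over the 3 conditions (0.168%). For the KO response minus the WT response it was 0 at 30 min (0.0783%) and 0 at 120 min (0.134%). A joint test of any difference among the 6 groups called 0 members and 0.28% of all probe sets.

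An unadjusted p under 0.05 was more common. At 30 min against untreated it was reached by 1 of 9 members in KO (8.38% of all probe sets) and 2 in WT (5.02%). At 120 min it was reached by 1 in KO (7.22%) and 3 in WT (8.66%). For KO against WT it was reached by 1 in untreated nodes (5.48%), 1 at 30 min (6.7%), 2 at 120 min (7.17%) and 0 averaged over conditions (6.44%). Between genotypes, the difference of responses gave 1 at 30 min (5.59%) and 3 at 120 min (6.99%). The joint test gave 2 (8.01%). The members behind these counts are Hspa1b, Hspa1a, Dnajb1 and the second Hsp90aa1 probe set. That last probe set is 1 of those counted in WT at both times, in the response difference at 120 min and in the joint test, and the only one in untreated nodes and in the response difference at 30 min. It would not have passed the low-value filter without WT untreated arrays, so its part of these counts supports nothing. Within a genotype, both times are set against the same untreated arrays, so these comparisons are not independent.

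Hspa1b was low in KO and high in WT at 120 min. In KO it measured 130.7, 175.6 and 136.2 untreated, 195.0 and 125.2 at 30 min, and 99.9 and 80.5 at 120 min. WT arrays gave 93.8, 105.3 and 147.5 untreated, 199.8 and 165.1 at 30 min, and 163.2 and 193.1 at 120 min. Both KO arrays at 120 min thus lay below all KO untreated arrays, both WT arrays above all WT untreated arrays, and the genotypes did not overlap at that time. Non-overlap is frequent with so few arrays. It occurred in either direction for 27% of all probe sets in KO at 120 min, 27.3% in WT at 120 min and 41.7% between genotypes at 120 min. This combination at 120 min, KO wholly below and WT wholly above its untreated arrays, was seen in 107 of 8938 probe sets (1.2%). No member did the reverse (1.59%), so 1 of 9 members separated in opposite directions, either way round (2.79%).

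At 120 min against untreated, Hspa1b was at -0.55 ± 0.21 in KO (limma, unadjusted p = 0.0243, adjusted p = 0.656) and 0.55 ± 0.21 in WT (unadjusted p = 0.0232, adjusted p = 0.495). The KO response minus the WT response was -1.10 ± 0.30, with a 95% interval of -1.76 to -0.45 (unadjusted p = 0.00317, adjusted p = 0.383). It ranked 74 among 8938 probe sets by p and did not pass. KO minus WT at 120 min was -0.80 ± 0.24 (adjusted p = 0.34). At 30 min the change was 0.09 in KO and 0.58 ± 0.21 in WT (adjusted p = 0.93 in WT), and the WT arrays at 30 min again lay above the untreated ones. The difference of the 30 min responses was -0.49 ± 0.30 (adjusted p = 0.868). In untreated nodes KO minus WT was 0.30 ± 0.19 with overlapping arrays (adjusted p = 0.977).

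Hspa1a, its near-copy, stood out at 120 min in WT. In KO the values were 66.4, 51.2 and 70.0 untreated, 63.8 and 79.6 at 30 min, and 54.3 and 41.6 at 120 min. WT nodes had 49.4, 40.2 and 62.4 untreated, 42.0 and 50.2 at 30 min, and 84.7 and 89.9 at 120 min. Both WT arrays at 120 min were above the other 12 arrays and did not overlap WT untreated, while the KO arrays at 120 min overlapped KO untreated. At 120 min the log2 change was -0.22 ± 0.20 in KO (adjusted p = 0.858) and 0.59 ± 0.20 in WT (unadjusted p = 0.0112, adjusted p = 0.397). The KO response minus the WT response was -0.81 ± 0.28 (unadjusted p = 0.0134, adjusted p = 0.551), and KO minus WT at 120 min was -0.63 ± 0.22 (adjusted p = 0.469). At 30 min the change was 0.12 ± 0.20 in KO and -0.03 ± 0.20 in WT, and the WT arrays at 30 min overlapped the untreated ones, unlike those of Hspa1b. Both KO arrays at 30 min lay above both WT arrays (14.8% of all probe sets), the reverse of the order at 120 min. KO minus WT at 30 min was 0.33 ± 0.22 (adjusted p = 0.777). For Hspa1b it was -0.19 ± 0.24 with overlapping arrays (adjusted p = 0.903).

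Only the promoters of the pair were compared here, not their transcripts or probe sequences. An oligonucleotide of one probe set of such near-copies may also bind the other gene's RNA, so the pair cannot be counted as independent. Over the 14 arrays the normalized log2 values of Hspa1a and Hspa1b had a Pearson r of 0.37 (permutation p = 0.191) and a Spearman rho of 0.31 (permutation p = 0.287). These were part of 36 pairs of members, for which the Benjamini-Hochberg adjusted p-values were 0.484 and 0.612. Without the 2 arrays on which Hspa1b lay farthest from its own median, r was 0.14, and for deviations from the group means it was -0.12. Over all 36 pairs r ran from -0.63 to 0.55 with a median of -0.07, and 0 passed the adjustment, the smallest adjusted p being 0.419.

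The genes whose values followed Hspa1b most closely over the 14 arrays were Mlst8 (r = 0.86), Defa23 (r = 0.82) and Rab1a (r = 0.816). For Hspa1a they were Gjb2 (r = 0.899), Ogdh (r = 0.873) and Acy3 (r = 0.841). For the second Hsp90aa1 probe set they were Polr2l (r = 0.816), Elovl6 (r = 0.794) and Sparcl1 (r = 0.776). The lists share no gene. They were picked as the highest of all tested probe sets with a single gene, so the coefficients have no test.

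Cell markers also differed between the arrays on which Hspa1a and Hspa1b stood apart. The T-cell sum was 933.0 to 963.9 in KO at 120 min and 695.7 to 883.2 in KO untreated nodes. In WT it was 685.6 to 695.5 at 120 min and 1062.6 to 1156.2 untreated. The B-cell sum was 2724.0 to 3567.4 in KO at 120 min and 2124.7 to 2865.9 in KO untreated nodes, against 1724.0 to 1746.9 in WT at 120 min and 2513.1 to 3252.5 in WT untreated nodes. Lymphocyte markers thus ran opposite to both Hsp70 genes, without overlap for the T-cell sum. Of the 10 marker lists, others also separated the groups. In KO at 120 min against KO untreated nodes, the salivary sum was 96136.7 to 98749.0 against 60102.6 to 79591.0. The macrophage sum (13 of 17 genes) was 2764.6 to 3680.7 against 2453.3 to 2705.8, and the sum for stroma and endothelium (16 of 18) was 3437.1 to 3531.1 against 3593.5 to 4369.2. In WT at 120 min against WT untreated nodes, the plasma-cell sum (7 of 9) was 2782.4 to 3258.7 against 3288.5 to 3787.2. No gene of these lists was at 0 on every array, and the adipocyte sums are given with Hsp90aa1. The salivary and macrophage sums overlapped between the WT groups. Over 14 arrays r with the T-cell sum was -0.67 for Hspa1a and -0.31 for Hspa1b, and with the B-cell sum -0.65 and -0.44. For Hspa1b the coefficients farthest from 0 were those with erythroid (0.51) and macrophage (-0.50) markers. These are descriptions over arrays that also share their groups.

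Skeletal muscle markers (24 of 24 genes, none at 0 on every array) ran the same way as the Hsp70 pair at 120 min against untreated. Over 14 arrays their r was only 0.26 with Hspa1a and 0.13 with Hspa1b. Their sum was 1610.1 to 4581.2 in KO at 120 min and 4713.5 to 14358.4 in KO untreated nodes. In WT it was 4918.9 to 4925.2 at 120 min and 1971.4 to 4220.5 untreated. With the mean of these markers as a covariate, the difference of the Hspa1b responses at 120 min was -1.58 (adjusted p = 0.564), and with the salivary gland markers as a covariate it was -1.03 (adjusted p = 0.569). For Hspa1a the same fits gave -0.78 (adjusted p = 0.959) with the muscle markers and -0.62 (adjusted p = 0.804) with the salivary markers. The ratio of 3' to 5' signal of Gapdh, which reads RNA quality, was 0.857 and 0.777 in KO at 120 min against 0.867 to 0.976 in KO untreated nodes. In WT it was 0.891 and 0.723 at 120 min against 0.902 to 1.01 untreated. The same ratio for actin overlapped in both genotypes. It was 1.35 and 1.35 in KO at 120 min against 1.24 to 1.42 in KO untreated nodes. WT arrays had 1.41 and 1.33 at 120 min against 1.36 to 1.58 untreated. Apart from these covariates, the part of these measures in the Hspa1a and Hspa1b values was not tested.

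**Figure D2:**
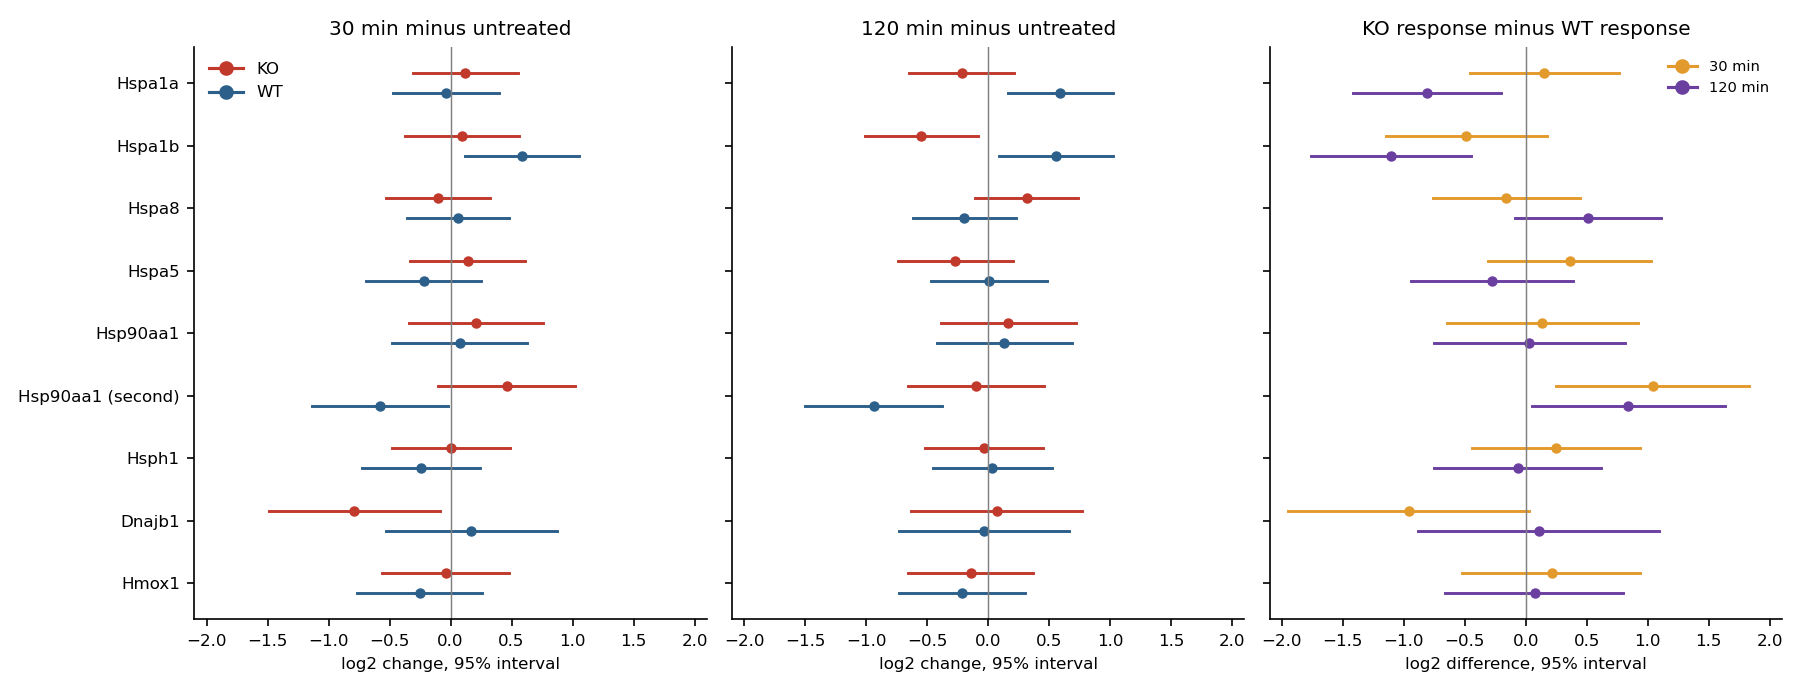
Log2 change of each tested member against untreated arrays at 30 min (left panel) and 120 min (middle panel), KO above WT, and the KO response minus the WT response (right panel), with bars for 95% intervals of the limma fit. The interval for Hspa1b in the right panel at 120 min runs from -1.76 to -0.45, yet its p adjusted over all probe sets is 0.383.

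Hspa8, the constitutive cytosolic Hsp70, had a pattern of the other sign at 120 min. KO arrays gave 856.2, 716.9 and 688.4 untreated, 586.8 and 820.7 at 30 min, and 888.8 and 1036.8 at 120 min. In WT the values were 640.6, 872.5 and 964.2 untreated, 882.4 and 881.9 at 30 min, and 836.1 and 644.0 at 120 min. Both KO arrays at 120 min lay above all KO untreated arrays and above both WT arrays at 120 min, while the WT groups overlapped. The log2 change at 120 min was 0.32 ± 0.20 in KO (adjusted p = 0.772) and -0.20 ± 0.20 in WT (adjusted p = 0.843). KO minus WT at 120 min was 0.40 ± 0.21 (adjusted p = 0.763), and the difference of responses was 0.51 ± 0.28 (adjusted p = 0.774). At 120 min, 13.2% of all probe sets lay wholly higher in KO than untreated and 22.9% wholly higher in KO than in WT. At 30 min the order of the genotypes was reversed, with both KO arrays below both WT arrays (15.1% of all probe sets). KO minus WT was then -0.27 ± 0.21 (adjusted p = 0.818).

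Hspa5 encodes BiP, the Hsp70 of the endoplasmic reticulum. In KO the values were 1438.3, 1258.5 and 1296.5 untreated, 1281.6 and 1803.0 at 30 min, and 1020.2 and 1260.6 at 120 min. In WT, intensities were 1480.8, 1041.1 and 1625.9 untreated, 1413.8 and 1088.3 at 30 min, and 1436.0 and 1427.8 at 120 min. At 120 min both KO arrays lay below both WT arrays, but KO overlapped its own untreated arrays in deposited intensity, though not after normalization, where both lay lower. The log2 change at 120 min was -0.27 ± 0.22 in KO (adjusted p = 0.83) and 0.005 ± 0.22 in WT (adjusted p = 0.998), and KO minus WT at 120 min was -0.32 ± 0.24 (adjusted p = 0.873).

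Hsp90aa1 encodes the inducible cytosolic Hsp90, and its probe sets disagreed. The main one ran from 357.3 to 739.8, both on KO arrays at 30 min, and none of its 4 changes against untreated exceeded 0.21 in size. It had 0.21 ± 0.26 in KO and 0.08 ± 0.26 in WT at 30 min, and 0.16 ± 0.26 in KO and 0.13 ± 0.26 in WT at 120 min. The second probe set was dim, above the 40th percentile of its array on 3 of 14 arrays. In KO it measured 28.0, 32.7 and 15.4 untreated, 51.4 and 41.8 at 30 min, and 9.6 and 34.0 at 120 min. WT arrays had 49.5, 77.3 and 38.8 untreated, 40.7 and 10.9 at 30 min, and 8.2 and 14.2 at 120 min. All 3 WT untreated arrays lay above all KO untreated arrays and above both WT arrays at 120 min. Of all probe sets, 10.2% separated the untreated genotypes in either direction.

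The second Hsp90aa1 probe set met the filter clearly on WT untreated replicate B alone (77.3 against a 40th percentile of 47.3). By narrow margins it also did on WT untreated replicate A (49.5 against 49.3) and KO replicate B at 30 min (41.8 against 41.6). It would not have passed without the WT untreated arrays. Its differences from WT untreated nodes are therefore given as descriptions of dim values, with no test. The log2 change was 0.46 in KO and -0.58 in WT at 30 min, and -0.10 in KO and -0.94 in WT at 120 min. KO minus WT in untreated nodes was -0.61. The KO response minus the WT response was 1.04 at 30 min and 0.84 at 120 min. With the salivary gland markers as a covariate, that difference was 0.02 at 30 min and 0.49 at 120 min, and the KO change at 30 min was -0.28. The main probe set had differences of response of 0.13 ± 0.36 at 30 min and 0.03 ± 0.36 at 120 min. Adipocyte markers (10 of 12 genes with a probe set, none at 0 on every array) also separated these groups, with a sum of 3513.7 to 4174.4 in KO untreated nodes against 4568.3 to 4629.2 in WT untreated nodes, and 3709.5 to 4209.1 in WT at 120 min. Their r with this probe set over 14 arrays was 0.57, a description, and their part in its values was not tested.

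Dnajb1, the Hsp40 that brings clients to Hsp70, had 1 very low value. KO arrays had 62.8, 73.7 and 81.7 untreated, 4.9 and 61.2 at 30 min, and 85.6 and 68.8 at 120 min. WT arrays read 54.0, 71.9 and 82.4 untreated, 70.2 and 87.3 at 30 min, and 54.6 and 68.3 at 120 min. That 4.9 was on replicate A, the KO array that stood apart from the others in general. Both KO arrays at 30 min lay below the WT arrays at 30 min. They also lay below the KO untreated arrays in deposited intensity, but overlapped them after normalization. In either direction, 22.6% of all probe sets separated KO at 30 min from KO untreated and 29.9% separated KO from WT at 30 min.

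At 30 min the log2 change of Dnajb1 was -0.79 ± 0.32 in KO (unadjusted p = 0.0297, adjusted p = 0.563) and 0.17 ± 0.32 in WT (adjusted p = 0.989). KO minus WT at 30 min was -0.91 ± 0.35 (adjusted p = 0.7), and the KO response minus the WT response was -0.96 ± 0.46 (adjusted p = 0.868). Without KO replicate A at 30 min these were -0.06 in KO against untreated and -0.19 for KO minus WT. Without KO replicate B they were -1.52 (adjusted p = 0.02), -1.64 (adjusted p = 0.0172) and -1.69 for the difference of responses (adjusted p = 0.0485), with only replicate A left in that group. With the salivary gland markers as a covariate, the change in KO was -0.27 and the difference of responses -0.25. At 120 min Dnajb1 was at 0.07 ± 0.32 in KO and -0.04 ± 0.32 in WT.

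Hsph1, the Hsp110 that helps Hsp70 release its nucleotide, ran from 76.7 to 158.3, and both extremes were WT arrays. Its arrays overlapped in every comparison with untreated ones, and its log2 changes were 0.007 ± 0.22 in KO and -0.24 ± 0.22 in WT at 30 min, and -0.03 ± 0.22 in KO and 0.03 ± 0.22 in WT at 120 min. KO minus WT at 30 min was 0.35 ± 0.25 (adjusted p = 0.794), and 0.06 without KO replicate B. The deposited intensities of these groups did not overlap (106.7 and 154.7 in KO, 76.7 and 102.8 in WT), but the normalized values did. Hmox1 ran from 273.3 to 492.8, both on KO arrays at 30 min. Its log2 changes were -0.04 ± 0.24 in KO and -0.25 ± 0.24 in WT at 30 min, and -0.14 ± 0.24 in KO and -0.22 ± 0.24 in WT at 120 min. WT arrays at 30 min (312.9 and 319.5) lay just below the lowest WT untreated array (328.8), and 19.5% of all probe sets separated these groups in one direction or the other.

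Hspa8, Hspa5, the main Hsp90aa1 probe set, Hsph1 and Hmox1 are the tested members that reached no unadjusted p under 0.05 in any comparison. As they are picked on these same data, intervals near 0 and large p-values follow in part from the choice. The intervals of all their 20 changes against untreated nodes lay between -0.77 and 0.76. On the scale of the test, a log2 change of 1 in either direction was outside every one of them, and the smallest adjusted p was 0.772. That scale understates changes of dim genes. For Hsph1, whose values were the lowest of these, a log2 change of 1 in the intensity itself was therefore not excluded. The median standard error of a change was 0.232. Hspb1, below the filter and not tested, measured 16.9, 23.4 and 30.2 in KO untreated nodes, 10.3 and 7.2 at 30 min, and 5.2 and 8.1 at 120 min. In WT it measured 20.6, 12.3 and 10.8 untreated, 7.0 and 5.2 at 30 min, and 6.2 and 17.2 at 120 min. All 4 irradiated KO arrays lay below the 3 untreated ones. Both WT arrays at 30 min also lay below the WT untreated ones, while WT at 120 min overlapped them. Every value was under the 40th percentile of its array (38.3 to 55.28). Of all tested probe sets, 11.7% lay wholly lower than untreated in KO at 30 min, 13.8% in KO at 120 min and 10.4% in WT at 30 min.

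**Figure D3:**
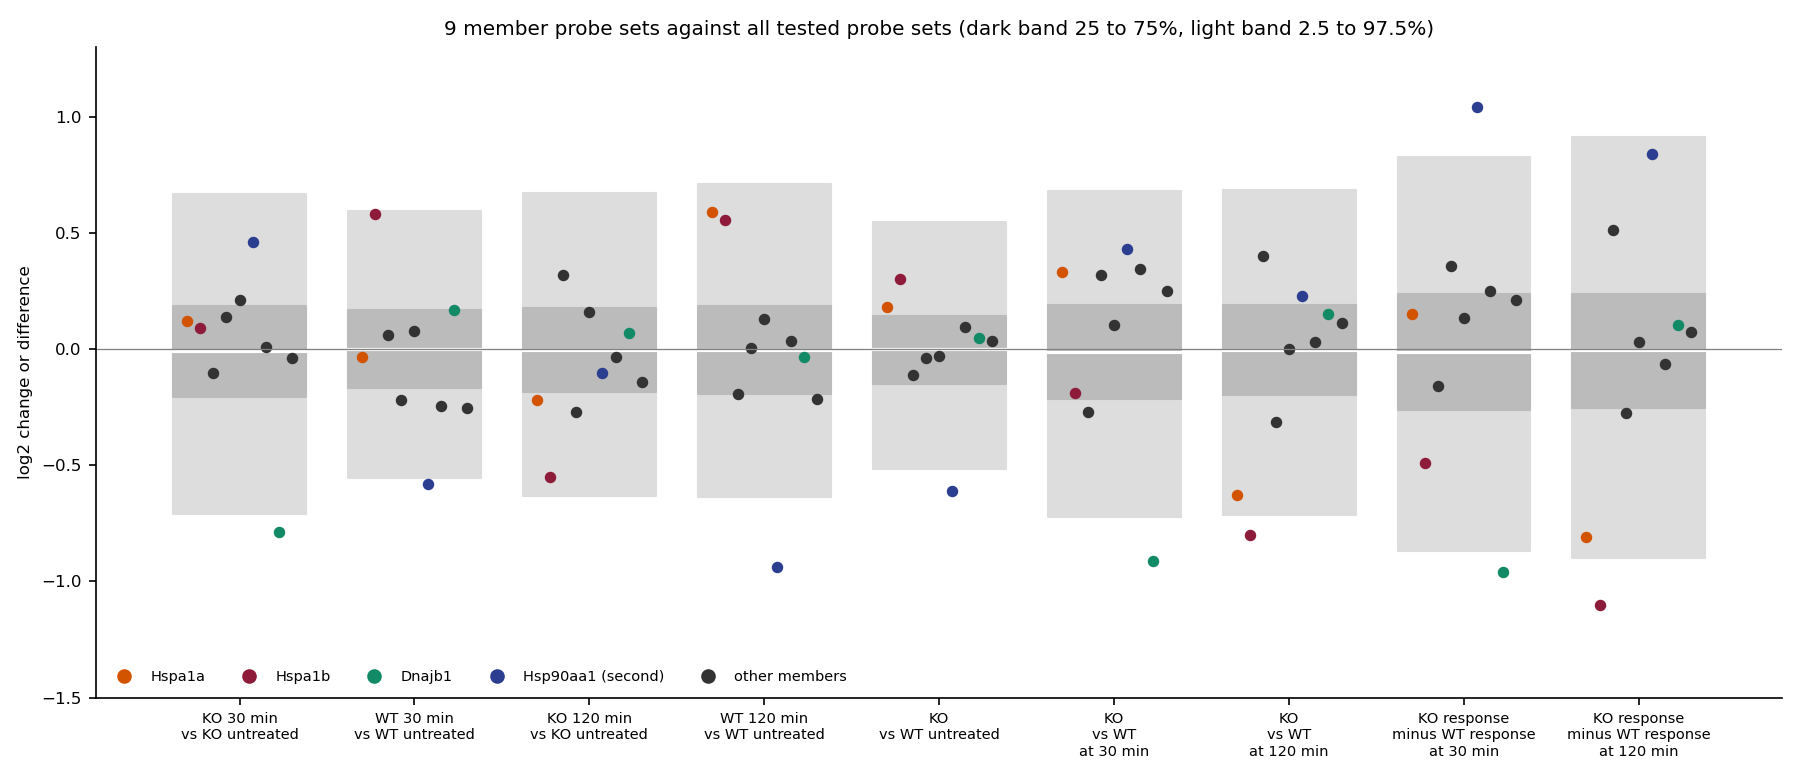
Log2 changes of the 9 tested member probe sets in 9 comparisons (points) over the spread of all 8938 tested probe sets, whose central 50% is the dark band and central 95% the light band. Hspa1b, Dnajb1 and the second Hsp90aa1 probe set are the members that leave the light band, at 120 min for Hspa1b and at 30 min for Dnajb1.

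As a group the members had changes of both signs. At 30 min the changes were positive in 6 of 9 in KO and 4 of 9 in WT, with medians of 0.09 in KO and -0.03 in WT, against -0.01 and 0.002 over all probe sets. At 120 min they were positive in 3 in KO and 5 in WT, with medians of -0.10 in KO and 0.005 in WT, against -0.003 and -0.004 over all probe sets. The difference of responses had a median of 0.15 at 30 min and 0.03 at 120 min. Counting members whose deposited intensities did not overlap, KO lay above WT for 3 at 30 min (14.8% of all probe sets) and below for 2 (15.1%), above for 2 at 120 min (22.9%) and below for 3 (18.7%), and in untreated nodes above for 0 (5.53%) and below for 1 (4.69%). Against untreated, KO was above for 1 (10.8%) and below for 1 (11.7%) at 30 min, and above for 1 (13.2%) and below for 1 (13.8%) at 120 min. WT was above for 1 (9.06%) and below for 1 (10.4%) at 30 min, and above for 2 (12.1%) and below for 1 (15.2%) at 120 min. The second Hsp90aa1 probe set is the 1 that separated untreated nodes. Against untreated, it is also the 1 above in KO at 30 min and the 1 below in WT at 120 min. Between genotypes at 30 min it is among the 3 above. It would not have passed the filter without WT untreated arrays, so its part of these counts, signs and medians supports nothing.

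Other genes of the chaperone and stress pathways gave no call either. Of 29 further cytosolic heat shock genes and co-chaperones tested, 0 rose and 0 fell in any of the 10 comparisons by limma with adjustment over all probe sets. At 120 min against untreated, an unadjusted p under 0.05 was reached by 1 upwards and 3 downwards in KO and by 1 and 0 in WT, and the median change was 0.04 in each genotype. In KO at 120 min the largest change within this list was that of Hspb2, a small heat shock protein of muscle. It measured 16.2 and 84.9 in KO at 120 min against 154.4, 110.0 and 136.3 in KO untreated nodes, without overlap, and the change was -1.13 ± 0.34 (unadjusted p = 0.00515, adjusted p = 0.59). The skeletal muscle marker sum was also lower, 1610.1 to 4581.2 in KO at 120 min against 4713.5 to 14358.4 in KO untreated nodes, and their part in the Hspb2 values was not tested. Hspa4l, an Hsp110 relative, had the next largest change. It measured 19.8 and 43.5 in KO at 120 min against 92.1, 96.4 and 90.0 in KO untreated nodes, and 51.8 and 92.0 in WT at 120 min against 59.8, 60.5 and 65.4 in WT untreated nodes. Both KO arrays at 120 min lay below all others in KO, while the WT groups overlapped. The change in KO was -1.001 ± 0.23 (unadjusted p = 0.000819, adjusted p = 0.487) and the KO response minus the WT response was -1.20 ± 0.32 (adjusted p = 0.369).

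At 30 min in KO, the largest changes within that list were those of Dnajb4 (0.93), Sugt1 and Dnajb2. Sugt1, an Hsp90 co-chaperone, was at -0.92 ± 0.19 (unadjusted p = 0.000385, adjusted p = 0.335). Dnajb2, an Hsp40 protein like Dnajb4, was at 0.72 ± 0.19 (adjusted p = 0.369). Dnajb4 met the filter only on KO replicate A at 30 min (123.5) and at 120 min (58.7), where it was high. KO replicate B at 30 min read 30.7 and KO untreated arrays 28.3, 24.5 and 11.4, so the Dnajb4 change is a description with no test. These values include the KO array that stood apart. Among 25 genes of the endoplasmic reticulum, 0 were called, and at 120 min an unadjusted p under 0.05 was reached by 1 upwards and 3 downwards in KO and by 2 and 1 in WT. Ddit3, the CHOP factor of prolonged reticulum stress, was at 0.84 ± 0.29 in KO at 30 min (adjusted p = 0.458), 0.75 ± 0.29 in KO at 120 min (adjusted p = 0.656) and 0.86 ± 0.29 in WT at 120 min (adjusted p = 0.405). The largest change of this list in KO at 120 min was a fall, that of Dnajc3 (-0.88 ± 0.27, adjusted p = 0.601). Manf was lower at 120 min in both genotypes, by -0.58 ± 0.25 in KO (adjusted p = 0.679) and -0.56 ± 0.25 in WT (adjusted p = 0.559). Of the 25 changes at 120 min, 7 were positive in KO and 11 in WT. The median of the list at 120 min was -0.14 in KO and -0.045 in WT, against -0.003 and -0.004 over all probe sets. The 9 mitochondrial chaperone genes and the 12 genes of the chaperonin and prefoldin had 0 calls in each comparison. At 120 min an unadjusted p under 0.05 was reached by 1 mitochondrial gene in KO and 0 in WT, and by 0 chaperonin genes in KO and 1 in WT, each downwards.

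Around Hmox1, 19 genes of heme handling and the Nrf2 response were tested and 0 were called. At 120 min an unadjusted p under 0.05 was reached by 1 upwards and 1 downwards in KO and by 3 and 0 in WT. Nfe2l2, which encodes Nrf2, measured 361.9 and 305.2 in KO at 120 min against 283.5, 262.3 and 264.6 in KO untreated nodes. It measured 548.2 and 526.9 in WT at 120 min against 262.9, 299.9 and 309.4 in WT untreated nodes. The irradiated arrays lay above the untreated ones in both genotypes, and the WT arrays above the KO arrays. The change in WT was 0.79 ± 0.21 (unadjusted p = 0.00284, adjusted p = 0.208), the smallest adjusted p among the wider lists in the 10 comparisons. It was called without KO replicate A at 30 min, the array that stood apart (0.79, adjusted p = 0.0431), and without KO replicate B at 30 min (0.78, adjusted p = 0.0456), although neither array enters the comparison other than through the normalization and the shared spread. For KO minus WT at 120 min the value was -0.59 ± 0.23 (adjusted p = 0.565).

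Gsta4, a glutathione transferase that clears products of lipid oxidation, measured 69.0, 83.2 and 59.5 in KO untreated nodes against 20.3, 10.4 and 18.9 in WT untreated nodes. KO minus WT was 1.10 ± 0.21 (unadjusted p = 0.000188, adjusted p = 0.634). At 120 min it measured 28.5 and 56.1 in KO and 30.2 and 54.9 in WT, which overlap, whereas the untreated genotypes did not. Its WT untreated values were under the 40th percentile of their arrays. The KO response minus the WT response at 120 min was -1.20 ± 0.33 (adjusted p = 0.389).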

How the data were processed

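RNA from 14 arrays was compared in 6 genotype-by-time groups, read from the titles. The deposited values are linear intensity, 1 per probe set and array. The software and settings of the authors were not stated in any source used here. Gene names came from the platform annotation. With R 4.3.3 and limma 3.58.1 (statmod 1.5.0), log2(value + 32) was quantile normalized, 66 control probe sets were left out, and probe sets above their array's 40th percentile on at least 2 arrays were tested, leaving 8938 of 12422. A model of 6 group means (8 residual and 4.56 prior degrees of freedom) gave 10 comparisons and a joint F test, adjusted by the Benjamini-Hochberg method over all tested probe sets and called under 0.05. Precision is limited by the number of arrays. The fit was tested on simulated data.

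The members and the lists of related and marker genes were chosen with earlier results of these data known. Values on every array are given for the 6 members with the smallest F-test p and for Hspb1, and the genes named from wider lists are among the 4 largest changes of their list in a comparison. For the 3 members with the smallest F-test p, the 3 genes of highest Pearson r are named. The closing section gives the effect of 27 other settings. Promoter windows came from RefSeq.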

Additional observations from a re-analysis of the deposited data

Results flagged for a closer look

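Hspa1b was set apart because its irradiated arrays lay on opposite sides of the untreated ones in the genotypes at 120 min. Both KO arrays lay below every KO untreated array and both WT arrays above every WT untreated array. The difference itself was tested with limma, as the KO response minus the WT response, and was -1.10 ± 0.30 on the log2 scale (unadjusted p = 0.00317, adjusted p = 0.383), so it did not pass. The same separation in opposite directions, either way round, was found in 249 of 8938 tested probe sets (2.79%).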

How the results depend on the processing

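The count of called members stayed at 0 in 292 of 295 runs of the 11 tests under 27 alternatives, 14 of which left out 1 array each. Leaving out single arrays gave 0 to 1 called members for KO at 30 min against untreated, 0 to 1 for KO minus WT at 30 min and 0 to 1 for the KO response minus the WT response at 30 min, and in each the 1 was Dnajb1 without KO replicate B at 30 min, when replicate A alone stood for its group and was assumed to vary like the other groups. The replicate letters were not found to pair arrays, since deviations from the group means correlated between -0.121 and 0.084 in 31 same-letter pairs. With the letter as a replicate block, 0 members were called and Hspa1b kept a difference of responses of -1.10 at 120 min (adjusted p = 0.524). Across the alternatives that difference ran from -1.58 to -0.92 with adjusted p from 0.192 to 0.985, and that of Hspa1a from -1.24 to -0.60 with adjusted p from 0.412 to 1. All 15 member changes with an unadjusted p under 0.05, the second Hsp90aa1 probe set's included, kept their sign in every run. They were picked by p from these same arrays, most of which every run shares, so this adds no support. Of the 90 changes, 50 took the other sign in at least 1 run, none of them called. Of 1345 list counts, 6 differed from 0, all without 1 KO array at 30 min. Nfe2l2 was called in WT at 120 min without replicate A (adjusted p = 0.0431) or B (adjusted p = 0.0456). The other counts came without replicate B, when replicate A alone stood for KO at 30 min. There the log2 changes against KO untreated were 1.496 for Dnajb4, -1.255 for Dnajc3, -1.221 for Manf and -0.838 for Edem1. KO minus WT at 30 min was 1.725 for Dnajb4 and -1.139 for Edem1. Dnajb4 met the filter only on KO replicate A at 30 min and at 120 min, so its part supports nothing. Groups counted as overlapping or not changed between deposited and normalized values in 5 member comparisons, those of Hspa5 in KO at 120 min, Dnajb1 in KO at 30 min, the second Hsp90aa1 probe set in WT at 30 min, Hsph1 between genotypes at 30 min and Hmox1 between genotypes at 120 min. A filter at the 60th percentile left 6 members tested, and fitting only the groups compared gave no separate value for the average over conditions or the joint test.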
